A study of Drosophila melanogaster with 4 samples.

Results

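Long stretches of chromosome without a region of histone H3 enrichment were examined in nuclei of *Drosophila melanogaster* larvae. A stretch was a run of at least 10 kb between consecutive H3-enriched regions (clusters) on arm 2L, 3L, 3R or X. The members were chosen by these positions in the list that the authors deposited for the replicate set (from here on, the combined list). Of the 17758 gaps between consecutive clusters on these 4 arms, 749 were stretches, or 4.22%. The larvae were wild type, of the Oregon-R strain and in the 3rd instar. The groups were H3 ChIP (2 libraries) and input chromatin (2 libraries), with input 1 labelled for ChIP 1 and input 2 for ChIP 2. Chromatin immunoprecipitation with sequencing (ChIP-seq) was done with an H3 antibody on formaldehyde-fixed, sonicated chromatin. Nothing in the labels says whether the replicates came from separate collections of larvae, so differences between them may be technical. The labels name no single tissue, so no cell type is told apart.

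H3 is one of the core histones around which DNA is wrapped in nucleosomes, and it is present along nearly all of the genome. A cluster is a place where H3 ChIP reads exceeded the reads of the input chromatin, not a place where nucleosomes first appear, and a stretch without clusters is a place where no such excess was called. The ends of fly chromosome arms next to the centromere, and the tips at the telomeres, are rich in repeats and transposable elements, and reads from repeated sequence cannot be assigned to 1 place. The sources used here do not give how such reads were treated or how deep the libraries were, so whether reads could be placed in a stretch was not tested. Positions are on FlyBase r5. No annotation of that build was used, so no gene is named in a stretch and no sequence is shown.

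The rule used the positions of combined clusters, so the counts, lengths and positions of the stretches are a description of that list and carry no test. The 2 replicate lists cover the same libraries and are not independent of it.

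The 749 stretches held 12.0 Mb, or 12.2% of the 4 arms, and 27.2% of all bases between clusters. Their median length was 13191 bp, with quartiles of 11237 and 17981 bp, and the longest had 119339 bp. The median over all gaps of the 4 arms was 1241 bp. Most stretches lay close to the minimum: 466, or 62.2%, were shorter than 15 kb. At the other end, 134 had at least 20 kb and made up 32.1% of the length. Among them 38 had at least 30 kb and 4 had at least 50 kb.

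Lengths ran on without a break at the threshold. The shortest stretches had 10003 and 10023 bp on 2L, 10025 and 10041 bp on the X, and 10043 bp on 2L. The longest gaps outside had 9983 bp on the X, 9983 bp at 2 places on 2L, 9977 bp on 3R and 9977 bp on 2L. Members near the threshold thus had almost the same length as gaps that missed it.

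Arm 3R stood apart with fewer stretches. It held 119 of the 749, or 15.9%, on 28.5% of the length of the 4 arms. Per Mb of arm, there were 9.73 stretches on 2L, 8.47 on 3L, 8.83 on the X and 4.26 on 3R. They covered 15.8% of 2L, 13.6% of 3L, 6.27% of 3R and 14.4% of X. Stretches on 3R were also slightly shorter, with a median of 12577 bp against 13517 bp on 2L, 12967 bp on 3L and 13423 bp on the X. Of the stretches of at least 30 kb, 2L had 12, 3L had 13, 3R had 3 and the X had 10. The arm also differed outside the stretches. The median over all gaps was 1021 bp on 3R, against 1397 bp on 2L, 1333 bp on 3L and 1313 bp on the X. Clusters of replicates 1 and 2 covered 44.2 and 48.3% of 3R, 34.0 and 36.6% of 2L, 36.7 and 39.6% of 3L, and 34.4 and 39.9% of the X.

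**Figure D1:**
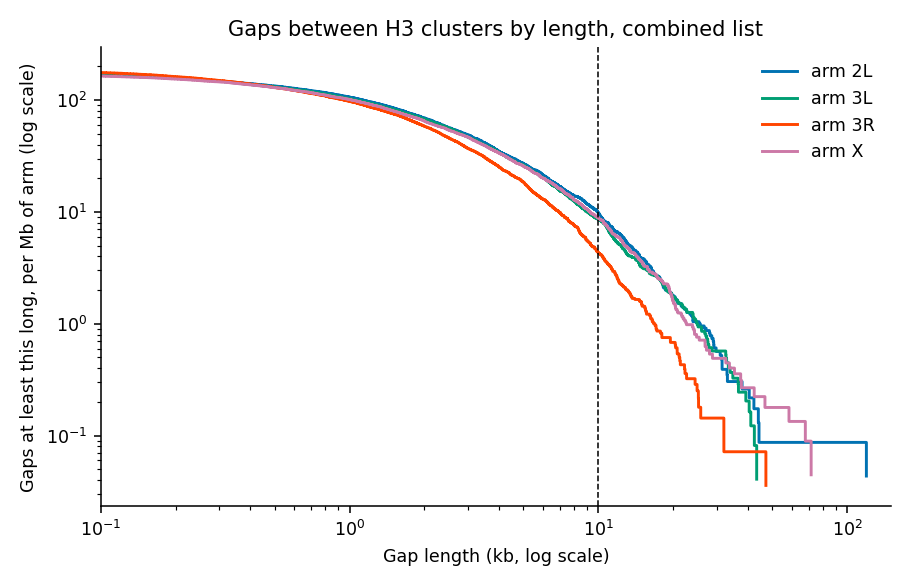
Number of gaps of the combined list at least as long as the length on the horizontal axis (kb, log scale), per Mb of arm (log scale), with 1 line for each arm and a dashed line at the minimum of a stretch, 10 kb. The line of 3R runs below the others from a few kb upward and crosses the dashed line at 4.26 per Mb, against 8.47 to 9.73 for 2L, 3L and X.

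The lower number on 3R was also present in the lists of the single replicates. Gaps of at least 10 kb numbered 328 on 3R in replicate 1 and 283 in replicate 2, against 428 and 385 on 2L, 422 and 376 on 3L and 395 and 345 on the X. They covered 18.2 ± 2.44% of 3R, 33.2 ± 2.29% of 2L, 30.6 ± 2.41% of 3L and 32.1 ± 4.29% of the X (SD, n = 2 for each). In each replicate 3R lay below the other 3 arms. The SD is that of 2 lists that may differ only for technical reasons, and it does not measure variation between larvae. These lists are also not independent of the combined list. The replicate lists hold fewer clusters, and their long gaps were about 1481 ± 130 in number (SD, n = 2), against 749 in the combined list.

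Along the arms, stretches were dense next to the centromere. The centromere lies at the high end of 2L, 3L and X and at the low end of 3R. The 2 Mb next to it held 132 stretches, 17.6% (95% Wilson interval 15.1 to 20.5%, for counting error only) on 8.17% of the length. With the list of a single replicate in place of the combined list, the share was lower, at 11.7% without replicate 1 and 11.0% without replicate 2. By length, stretches took up 31.7% of these ends jointly and 10.5% of the rest of the arms. The concentration was strong on 2L, where stretches covered 48.4% of the end and 12.7% of the rest, and on 3L, with 43.4% and 11.0%. It was weaker on the X, with 25.4% and 13.3%, and weakest on 3R, with 9.74% and 6.00%.

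Stretches in the centromeric ends were also longer. Their median was 14857 bp, against 13031 bp in the rest of the arms. On 2L the medians were 15608 and 13212 bp, on 3L 15967 and 12709 bp, on 3R 12837 and 12520 bp, and on the X 13842 and 13423 bp. Of the 134 stretches of at least 20 kb, 40 lay in these ends (29.9%), and of the 38 of at least 30 kb, 19 did (50.0%). The share near the centromere thus rose with the length required, on the same list that chose the stretches.

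**Figure D2:**
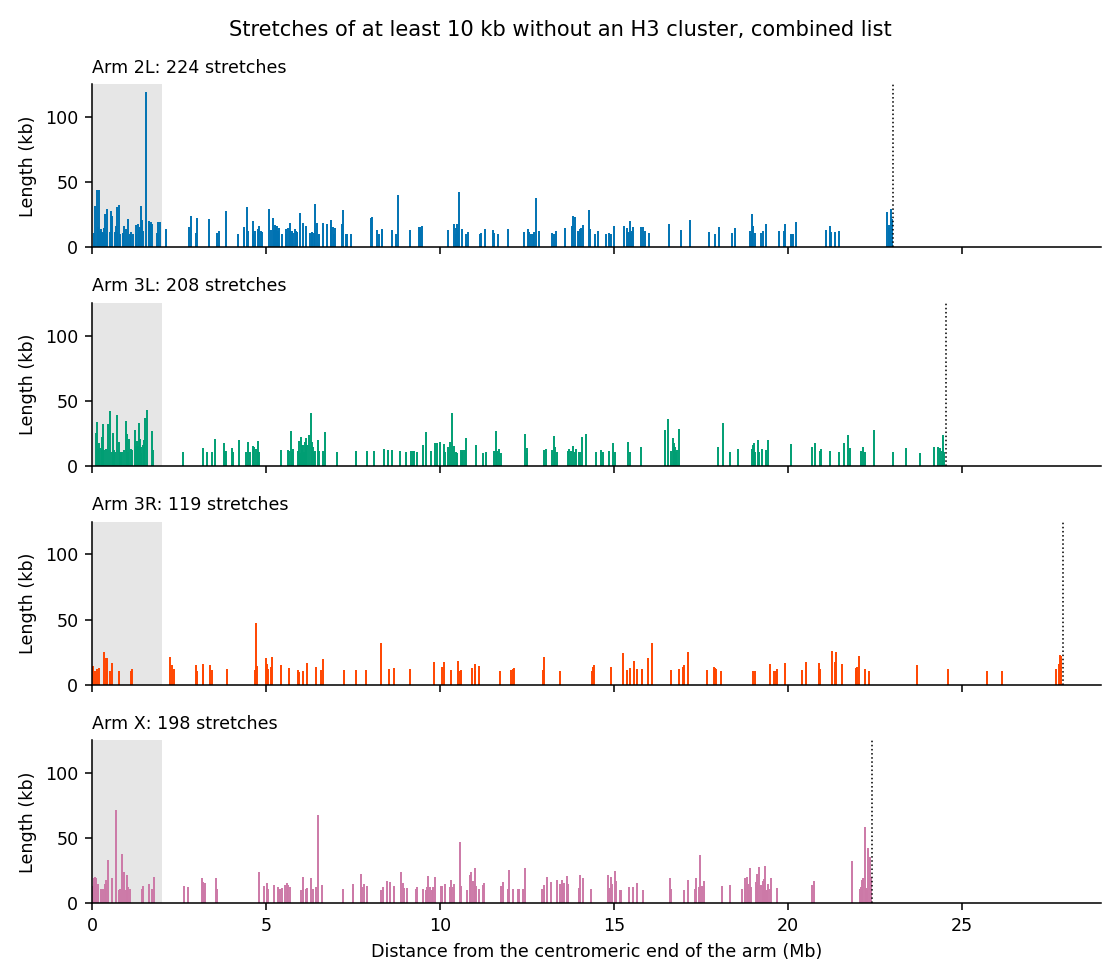
Each stretch as a line at its midpoint, with its length in kb on the vertical axis and the distance from the centromeric end of the arm in Mb on the horizontal axis, 1 panel for each arm. The grey band marks the 2 Mb next to the centromere and the dotted line the telomeric end of the arm. Lines are dense in the grey band of 2L (48 stretches) and 3L (43) and sparse on 3R (13), and the longest, 119 kb, stands in the band of 2L.

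In windows of 1 Mb counted from the centromeric end, no full window of the 96 was without a stretch. The median window had 7 stretches covering 9.52% of it. Coverage was highest in the first window of 2L, with 26 stretches over 50.6%, followed by the first window of 3L with 23 over 47.7% and the second window of 2L with 22 over 46.2%. The first window of the X had 20 over 39.8%, and that of 3R 11 over 17.2%. On each arm the window next to the centromere was the highest full window.

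Dense windows also occurred away from the centromere. On 2L the window from 5 to 6 Mb off the centromeric end had 24 stretches over 35.7%, and on 3L the window from 6 to 7 Mb had 19 over 33.3%. On the X the window from 10 to 11 Mb had 16 over 26.9%. Sparsest were the windows at 25 to 26 Mb on 3R (1 stretch, 1.03% of the window) and at 2 to 3 Mb on 3L (1 stretch, 1.05%). That window of 3L lies directly beside its dense proximal part.

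Over the telomeric 2 Mb of the 4 arms there were 42 stretches (5.61%), which covered 9.36% of these ends, against 12.2% of the whole arms. The X went the other way, with 16.3% against 14.4%. In the last 500 kb of the X, a size chosen after the map had been seen, 12 stretches covered 52.5%. The same end of 2L had 6 stretches over 24.5%, that of 3L 7 over 20.7% and that of 3R 4 over 14.6%. On all 4 arms this was more than the share of the whole arm, which was 15.8%, 13.6% and 6.27% on 2L, 3L and 3R. The X differed from the autosomal arms in that its telomeric 500 kb were covered more than its centromeric 500 kb (41.8%), whereas these had 55.0% on 2L, 45.5% on 3L and 27.0% on 3R.

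Most stretches had a neighbour close by. The median distance to the nearest other stretch was 18.6 kb, with quartiles of 4.63 and 50.8 kb, and 655 of the 749 (87.4%) lay within 100 kb of another. The 1605 shorter gaps of 5 to 10 kb, which are more numerous, had a median distance to each other of 12.7 kb, and 95.9% lay within 100 kb of another. Being near a neighbour was thus no more frequent among the stretches than among these shorter gaps, at an unequal number per Mb. Joined at up to 100 kb, the stretches formed 131 groups of at least 2, and 94 stood alone. The share in groups was 91.5% on 2L, 86.5% on 3L, 92.9% on the X and 72.3% on 3R.

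A few large groups held many of the stretches. The 10 groups of at least 10 members contained 211 stretches, 28.2% of all, and none of these groups was on 3R. Gaps of 5 to 10 kb, which are more numerous, formed 48 groups of at least 10, with 784 of the 1605 gaps. At a fixed joining distance of 100 kb, more numerous gaps form large groups more readily. The comparison thus does not tell whether large groups are particular to the stretches. The largest group of stretches lay on 2L from 21289763 to 22962265, with 44 stretches that filled 54.3% of its 1672.5 kb. Next was 3L from 22954541 to 24457289, with 41 stretches over 55.1% of 1502.7 kb. Both reach close to the centromeric end, 49.3 and 86.3 kb short of the last base of the arm. Between their stretches the combined list still had 157 and 149 clusters, with median log2 enrichments of 0.39 and 0.48. The proximal parts of 2L and 3L thus held many stretches separated by clusters, not a single stretch.

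The 2 groups next in size were away from the centromere. On 2L, 33 stretches lay between 16490249 and 17949719 and filled 34.1% of 1459.5 kb. On 3L, 22 stretches lay between 17848247 and 18629739 and filled 47.9% of 781.5 kb. On the X the largest group, with 14 stretches from 2905805 to 3347097, filled 53.6% of 441.3 kb and lay 19.1 Mb from the centromeric end. The largest group of 3R had 6 stretches from 334123 to 567275.

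The tip of the X was the densest of the large groups. From 36291 to 350269 it held 12 stretches that filled 83.6% of 314.0 kb, with 16 combined clusters between them. The outermost groups of the other arms were smaller. That of 2L ran from 8673 to 180653 with 6 stretches over 71.1%, that of 3L from 55497 to 352185 with 7 over 34.9%, and that of 3R from 27711023 to 27863917 with 4 over 47.7%.

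**Figure D3:**
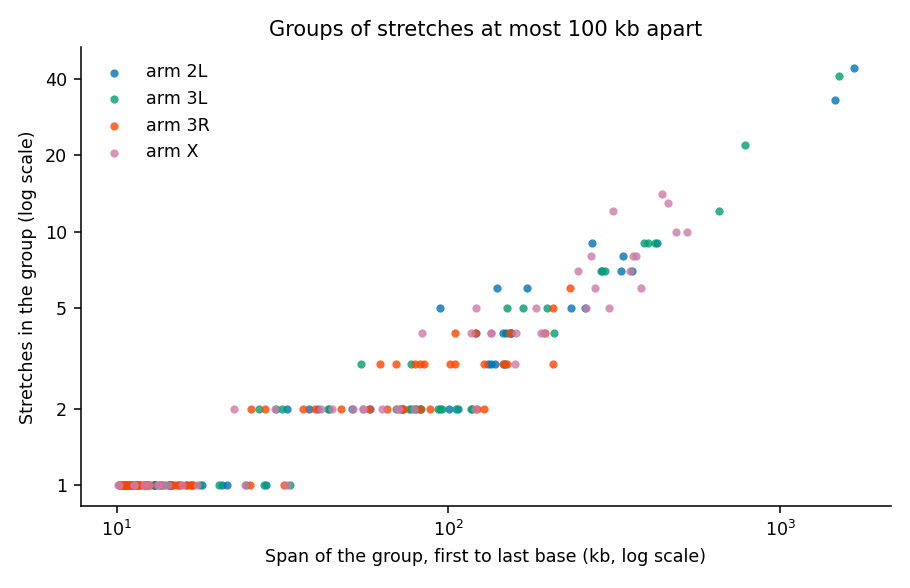
Groups of stretches at most 100 kb apart, 1 point for each group, with the span from first to last base in kb (log scale) against the number of stretches (log scale), coloured by arm. The 44 stretches of 2L and the 41 of 3L next to the centromere stand at the upper right, no group of 3R exceeds 6, and the X tip, with 12 stretches in 314.0 kb, lies left of the other groups of that size.

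In 95 places a single cluster separated a stretch from the next, with 31 of them on 2L, 27 on 3L, 29 on the X and 8 on 3R. That was 12.8% of the pairs of neighbouring stretches. Among gaps of 5 to 10 kb it was 222 places, or 13.9% of pairs. Those gaps are more numerous, at 9.04% of all gaps against 4.22% for the stretches. The shares of pairs thus do not tell whether stretches adjoin more often than their number alone would give, which was not tested. The clusters separating 2 stretches were narrow, with a median of 1765 bp, and their median log2 value was 0.36. Neither replicate covered 37 of the 95 (38.9%) over at least 50% of their length. The share was 29.6% among all clusters that flank a stretch and 22.5% among those that flank none. Clusters separating 2 gaps of 5 to 10 kb were not compared. By arm the separating clusters without cover were 11 of 31 on 2L, 12 of 27 on 3L, 12 of 29 on the X and 2 of 8 on 3R.

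On 2L the longest stretch ran from 21410083 to 21529421 (119.3 kb). It is flanked by clusters of log2 0.70 (1071 bp wide) and 1.90 (1017 bp), and no replicate cluster overlaps either flank. The replicate lists had gaps of 156.3 kb in replicate 1 and 147.5 kb in replicate 2 around it. Both replicates were thus empty there, and the gap was wider still in each. As background, proximal 2L also carries the histone gene complex of the fly, a tandem array of histone genes; its r5 position was not analysed here, so whether a stretch lies on it is not stated.

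The other long stretches of 2L fell in 2 places. Near the centromere were 22860739 to 22904929 (44.2 kb, flanks 0.47 and 0.47) and 22781563 to 22825485 (43.9 kb, flanks 0.85 and 0.22). The first was bounded almost equally in all lists, with replicate gaps of 45.4 and 44.3 kb, while around the second the gaps were 57.9 kb in replicate 1 and 87.3 kb in replicate 2. In the middle of the arm were 12459009 to 12501163 (42.2 kb, flanks 0.24 and 0.19) and 14203215 to 14243587 (40.4 kb, flanks 0.25 and 0.32). A cluster of replicate 2 reached 84 bases into the last.

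On 3L the 5 longest stretches were of nearly equal length. The longest, 22954541 to 22997793 (43.3 kb), opened the large proximal group, with flanks of 0.31 and 0.22. In that group also lay 24004641 to 24046975 (42.3 kb) and 23818267 to 23857385 (39.1 kb). The flanks of the 42.3 kb stretch had the lowest values among these, 0.12 and 0.14. The other pair stood in the middle of the arm, 18244061 to 18285021 (41.0 kb, flanks 0.27 and 0.60) and 14182589 to 14222941 (40.4 kb, flanks 0.31 and 0.30). Replicate 1 clusters reached 7 to 44 bases into 4 of these 5, and replicate 2 clusters into none of them.

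None of the 5 longest stretches of 3R lay in the 2 Mb next to the centromere. The longest, 4691689 to 4738793 (47.1 kb), was 4.72 Mb from the centromeric end, with flanks of 0.17 and 0.48. Then came 16068755 to 16100691 (31.9 kb, flanks 0.04 and 0.28) and 8293719 to 8325643 (31.9 kb, flanks 0.60 and 0.65). The last 2 of the 5 were 21245577 to 21271351 (25.8 kb, flanks 0.14 and 0.33) and 17121267 to 17146525 (25.3 kb, flanks 0.58 and 0.72). The 25.3 kb stretch had wide flanks, of 9135 and 4791 bp, and nearly the same edges in all lists, with a gap of 25.4 kb in both replicates. The stretch from 16068755 held a replicate 1 cluster of 1436 bp with a log2 value of 0.06, and no replicate 2 cluster.

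The X had 3 of the 4 stretches of at least 50 kb. The longest, 21687139 to 21758725 (71.6 kb), lay 0.70 Mb from the centromeric end, and its right flank had the highest value of any flanking cluster, 2.60. Replicate 1 covered 60.0% of that flank and replicate 2 none of it, and the gaps around the stretch were 122.5 kb in replicate 1 and 91.0 kb in replicate 2. Inside the arm lay 15896627 to 15964473 (67.8 kb, flanks 0.49 and 0.20) and 11831185 to 11877875 (46.7 kb, flanks 0.37 and 0.65). Around these the replicate gaps were 79.8 and 77.0 kb, and 52.6 and 48.1 kb. At the tip were 181673 to 239993 (58.3 kb, flanks 0.33 and 0.44) and 96065 to 138329 (42.3 kb, flanks 0.39 and 0.22). Replicate 1 had gaps of 73.6 and 109.0 kb there, and replicate 2 clusters reached 5 and 55 bases into the stretches.

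In 475 stretches (63.4%) neither replicate list had a base of a cluster. The other 274, 36.6% (95% Wilson interval 33.2 to 40.1%, for counting error only), held at least 1 base of a cluster of either replicate. These were 110 for replicate 1 and 187 for replicate 2, with 23 in common. The interval takes stretches as independent, which neighbours that share a flank are not, and it does not measure variation between libraries or larvae. The share was 35.1% among all gaps of the 4 arms and 34% among gaps of 5 to 10 kb, so the stretches were close to the background. By arm it was 42.4% on 2L, 39.9% on 3L, 29.8% on the X and 31.1% on 3R.

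In most of these stretches only the edge of a replicate cluster reached in. Replicate 1 clusters that crossed the edge of a stretch reached a median of 26 bases into it, and those of replicate 2 a median of 23 bases. Of 93 such clusters in replicate 1, 83 reached in by fewer than 100 bases, and of 177 in replicate 2, 162 did. In all, replicate 1 clusters covered 31.4 kb of the 12.0 Mb (0.262%) and replicate 2 clusters 37.5 kb (0.313%). On the 4 arms as a whole they covered 37.7% and 41.4%. Within 731 of the 749 stretches (97.6%), each replicate list had a run of at least 10 kb without a cluster.

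Clusters lying entirely inside a stretch were few, and their values were low. At least 1 was found in 32 stretches (4.27%), against 2.74% of the gaps of 5 to 10 kb and 0.738% of all gaps, which offer less room. Replicate 1 had 19 such clusters and replicate 2 had 21. The median of their log2 values was 0.15 in the first replicate and 0.11 in the second, whereas clusters of the same lists without a base in a stretch had medians of 0.54 and 0.53. By the rule, clusters inside a stretch lie where the combined list has none, so this contrast is not independent of the rule. Replicate clusters inside shorter gaps were not compared, so low values are not called particular to stretches. Inside a stretch the highest values were 0.48 in replicate 1 and 0.43 in replicate 2. They were also narrow, with medians of 1433 and 1432 bp against 2028 and 2101 bp.

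Of the stretches with most replicate bases on their arm, 3 held a cluster of both replicates. On 2L, 16574229 to 16607221 held a cluster of each replicate at the same place, with log2 values of 0.12 in replicate 1 and 0.20 in replicate 2. On 3L, 14533103 to 14551557 also held one of each, of 0.20 and 0.06. On 3R, 17671059 to 17682415 held one of each, of 0.06 and 0.0063. On the X, 21828049 to 21847847 held a cluster of replicate 2 alone, 2065 bp wide with a log2 value of 0.43, and replicate 1 had a gap of 42.8 kb around it.

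**Figure D4:**
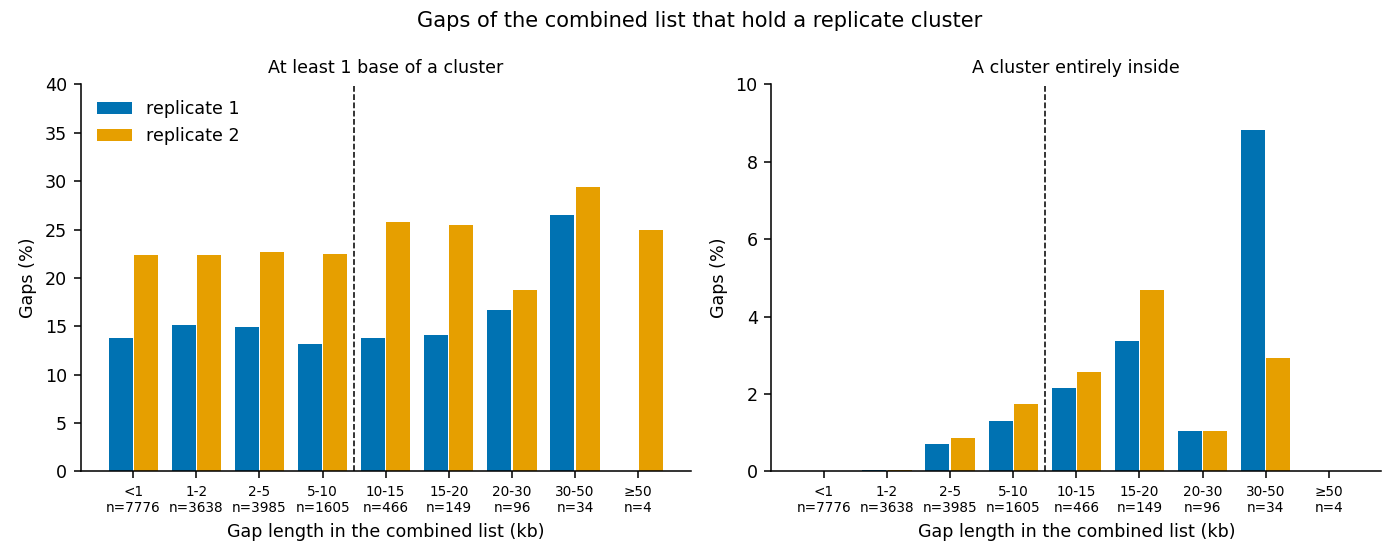
Share of gaps of the combined list, in %, that hold at least 1 base of a replicate cluster (left) or a replicate cluster entirely inside (right), by gap length in kb and by replicate, with the number of gaps under each class and a dashed line at 10 kb. The share with at least 1 base stays between 13.1 and 16.7% in replicate 1 and between 18.8 and 25.8% in replicate 2 up to 30 kb, while whole clusters inside are absent below 1 kb and reach at most 8.82%, in a class of 34 gaps.

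The opposite direction gave a different picture. Of the long gaps of replicate 1, 42.8% contained part of a stretch of the combined list, and of those of replicate 2, 48.9%. Stretches made up 40.3% of the long-gap bases of replicate 1 and 46.3% of those of replicate 2. Conversely, 98.8% and 98.6% of the bases of the stretches lay in long gaps of replicate 1 and 2. The combined list had 3046 clusters entirely inside the long gaps of replicate 1 and 2339 inside those of replicate 2. Its stretches are thus a smaller set within the long gaps of each replicate.

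The 1403 clusters that flank a stretch were narrower than the other 16359 clusters of the 4 arms, and their values were slightly lower. The median width was 1867 bp for flanking clusters and 2229 bp for the others, and 6.99% against 14.1% had at least 5000 bp. The median log2 enrichment was 0.37 for flanking clusters (quartiles 0.26 and 0.50) and 0.39 for the others (0.29 and 0.52). The difference of -0.025 is small beside the quartiles, which overlap over most of their range. Clusters that flank only a gap of 5 to 10 kb lay between, with a median of 0.38 and 1984 bp. The lower value did not hold for the longest stretches. Flanks had medians of 0.37 at stretches of 10 to 15 kb and 0.36 at 15 to 20 kb. At 20 to 30 kb the median was 0.38, and at 30 kb or more it was 0.41, above the 0.39 of the others.

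By arm the median log2 value was 0.35 for flanking clusters and 0.37 for the others on 2L, 0.36 and 0.38 on 3L, 0.35 and 0.39 on 3R, and 0.41 and 0.44 on the X. The widths were 1797 and 2093 bp on 2L, 1881 and 2185 bp on 3L, 1926 and 2407 bp on 3R, and 1831 and 2196 bp on the X. The flanking clusters were thus lower and narrower on each of the 4 arms. In the replicates' own lists, clusters overlapping a flanking cluster had median log2 values of 0.53 (replicate 1) and 0.52 (replicate 2). The others had 0.54 and 0.53, a difference of -0.012 ± 0.00025 (SD, n = 2), and the median widths were 1931 and 1978.5 bp against 2033 and 2105 bp. Both differences rest on the same flanking clusters of the combined list, so this SD does not measure their precision. With flanks of each replicate's own long gaps, the differences were -0.015 in replicate 1 and -0.021 in replicate 2.

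**Figure D5:**
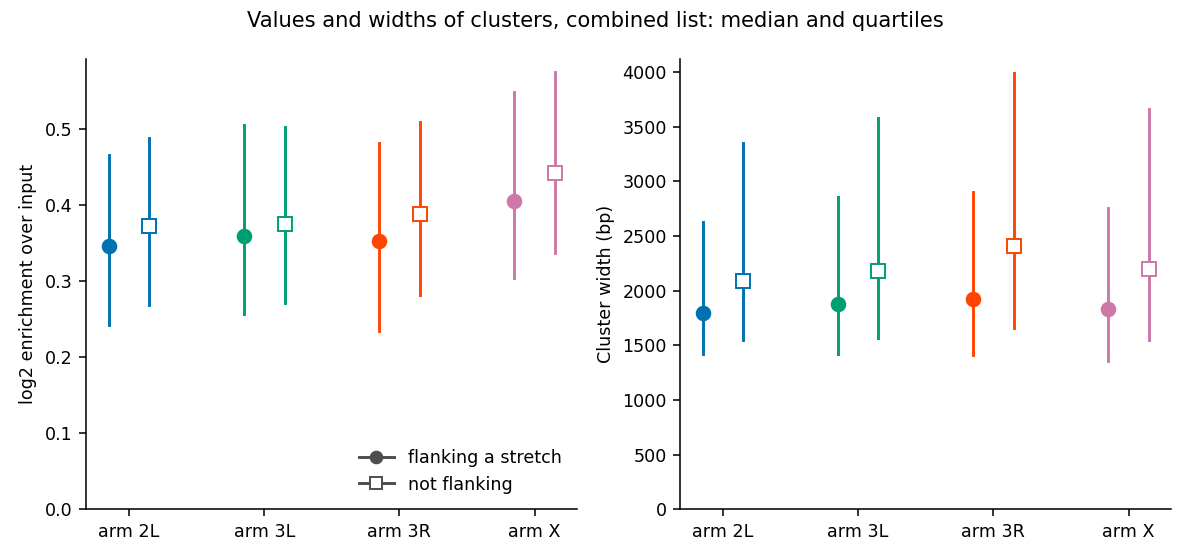
Median (symbol) and quartiles (line) of the log2 enrichment over input (left) and the width in bp (right) of combined clusters that flank a stretch (filled circles) and of those that do not (open squares), by arm. Circles lie below squares on every arm in both panels, by far less than the length of the lines on the left.

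The difference in value was not the same at both positions, and the change was not tested. In the 2 Mb next to the centromere, flanking clusters had a median of 0.42 and the others 0.41. In the rest of the arms the medians were 0.36 and 0.39. The widths kept their order in both, with 1927 and 2089 bp near the centromere and 1853 and 2239 bp elsewhere.

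A smaller share of the flanking clusters than of the others was covered by the replicates. Both replicates covered at least 50% of the length in 46.5% of flanking clusters and 57.0% of the others, and neither did in 29.6% and 22.5%. Among clusters that flank only a gap of 5 to 10 kb, neither did in 28.9%. The share not covered was 28.5% around stretches of 10 to 15 kb, 32.2% for 15 to 20 kb, 32.8% for 20 to 30 kb and 35.6% for longer ones. Of all stretches, 371 (49.5%) had both flanks covered by at least 1 replicate, 304 (40.6%) had 1 flank that was not, and 74 (9.88%) had neither flank covered.

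Flanking clusters of very high value lay mostly near the centromere. Of the 91 clusters above a log2 value of 1, 15 were flanking (16.5%), against 7.90% of all clusters on the 4 arms, and 12 of these 15 lay in the 2 Mb next to the centromere. There 5.13% of flanking clusters and 2.89% of the others were above 1. In the rest of the arms the order was the other way round, with 0.257% of flanking clusters and 0.318% of the others. Above 2 it was 1 of 12 (8.33%), close to the share among all clusters. Of the 10 highest flanking values, 8 lay in these centromeric ends, and 5 were covered by neither replicate. They include 2L from 21529422 to 21530438 (1.90), at the right edge of the 119.3 kb stretch, and 3L from 23508446 to 23509446 (1.77). Of the 15 flanking clusters above 1, neither replicate covered 6, and of the 76 other clusters above 1, neither covered 29 (38.2%).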

How the data were processed

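Each of the 2 H3 ChIP libraries has a list of regions, and a further list covers the replicate set. That it combines both replicates was taken from its name. Bowtie 0.12.7 is named in the submitters' processing notes, and the build is FlyBase r5, per the file headers. The sources used here do not give the region caller, its thresholds or the handling of repeats. Per region, the authors deposited 1 value, taken here as log2 enrichment over input. No header names the unit. In the combined list, differences among the 40 highest values were log2 of whole-number ratios (denominator up to 100, tolerance 1e-08) in 55 of 55 pairs, and natural logs of such ratios in 0. In the replicate lists 449 of 496 and 343 of 406 pairs were, with 0 on a natural log scale. On a log10 scale 1, 7 and 3 pairs were, for the combined list and replicates 1 and 2.

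Regions above 0 were sorted by start. A gap is the next start minus the previous end minus 1. In 5 pairs of combined clusters no base lay between, so 17753 gaps were counted for replicate overlap. A replicate cluster counted with 1 base in the stretch. Clusters were called covered at 50% of their length. Stretches were grouped at up to 100 kb. Position was taken at the midpoint. Gap finding, overlap and grouping recovered the known answers on simulated lists. Named stretches were the 5 longest of each arm, the one on each arm with most replicate bases, and those nearest the threshold, and the largest group of each arm. The other groups, windows and high flanking clusters given were chosen after their values were seen. The members and lists were chosen with earlier results of these data known. Files give no read counts, so depth and precision of single values are unknown. Input values are not in the lists used here, and no test was made. Software was Python 3.11.15, numpy 2.4.6, pandas 2.3.3, scipy 1.17.1 and matplotlib 3.10.9.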

Additional observations from a re-analysis of the deposited data

Results flagged for a closer look

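The combined list also has regions labelled as depleted, with values below 0, which no comparison above used. On the 4 arms there are 208, and 51 of them lie entirely inside a stretch. They are given here as a signal in data outside the main measurement, whose rate over the 4 arms was not above that in shorter gaps. They occur in 47 stretches (6.28%), at 4.26 per Mb of stretch against 4.91 per Mb of shorter gaps, which hold 157. The arms went both ways. The rate in stretches was higher on 2L (23 regions, 6.32 against 5.29 per Mb) and 3R (13 regions, 7.44 against 6.51 per Mb), and lower on 3L (11 regions, 3.29 against 5.74 per Mb) and the X (4 regions, 1.24 against 1.65 per Mb). Their median log2 value is -0.040, and that of the other depleted regions is -0.034.

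Many of these places are enriched in a replicate list. Of the 51, 26 (51.0%) have a base of an enriched cluster of either replicate, 17 of each, and 8 have one of both. Elsewhere on the 4 arms 85 of 157 do (54.1%). Seen from the replicates, 17 of the 19 clusters of replicate 1 that lie inside a stretch, and 17 of the 21 of replicate 2, overlap a depleted region of the combined list. All 8 places where both replicates have a cluster inside a stretch are of this kind. Elsewhere on the 4 arms, 14 of the 157 depleted regions lie on clusters of both replicates. The share among replicate clusters inside shorter gaps was not counted, so the overlap is not called particular to stretches. On 2L, from 12613232 to 12614794, the combined value is -0.16, the lowest of the 51, and the replicate clusters have 0.11 and 0.10. On 3L, from 5118724 to 5120408, it is -0.045, with 0.22 in replicate 1 and 0.20 in replicate 2. The cause was not tested.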

How the results depend on the processing

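Of 73 recomputed values, 26 stayed within a factor of 1.5 (counts), the Wilson interval (shares) or the SD between replicate lists (other values). The other 47 moved further. Only the flank differences could change sign, and 0 did. The Wilson interval served as a fixed limit here, since grouped stretches are not independent. With a minimum of 5000 bp there were 2354 stretches over 22980 kb, 12.1% near the centromere and 98.7% within 100 kb of another. With 20000 bp there were 134 over 3846 kb, 29.9% near the centromere and 51.5% within 100 kb of another, with flanking minus other medians of -0.0046 in log2 and -408 bp. With combined clusters that a replicate covers, 1219 stretches held 21504 kb, with a median of 14337 bp, 12.6% near the centromere, 53.7% with a replicate cluster, 94.1% near another, and flank differences of -0.036 and -450 bp. With values of at least 0.2 the total was 16128 kb, the median 13605 bp, and the other values 14.3%, 55.5%, 91.2%, -0.031 and -431 bp in the same order. With 1 replicate left out and the list of the other in place of the combined list, there were 1389 to 1573 stretches over 25464 to 29367 kb, with medians of 14447 to 14935 bp, 11.0 to 11.7% near the centromere, 69.5 to 87.3% with a cluster of the other replicate, 95.5 to 96.9% near another, and flank differences of -0.021 to -0.015 and -231 to -175 bp. Centromeric ends of 1 and 4 Mb held 10.7% and 22.3%. Distances of 50 and 200 kb joined 74.6% and 94.5%. Replicate clusters entirely inside were found in 4.27% of stretches, and 10% of the length was covered by 1 replicate in 2.54%. Without the X the total was 8735 kb. Counting depleted regions as boundaries, or including arm ends, moved nothing further than these limits. No paired analysis was possible because the lists hold no input values and no result comes from a test. Depth is unknown and limits every list.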

Other observations

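The rule takes gaps between clusters, so the arm ends are left out. On 3L 54161 bp precede the first cluster, on 2L 25546 bp follow the last, and on 3R 10895 bp follow the last. Each is longer than the minimum of a stretch. On the X the ends have 5067 and 6113 bp.

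Some high flanking values recur exactly. The clusters on 2L from 21542632 to 21543750 and on the X from 21580296 to 21581320 have the same value, 1.70, and those of 2.60 on the X from 21758726 and 1.60 on 2L from 22413872 have the same decimals. Of the 15 flanking clusters above 1, 5 share their value with another cluster of the 4 arms, and of all 1403, 367 do. The share among clusters that flank no stretch was not counted, so recurrence is not called a trait of flanking clusters.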
